A study of Mus musculus with 2 samples.

Results

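Mir199a-1, Mir199a-2, Mir199b, Mir214 and Mir140 are microRNA genes known from fibroblasts, meninges and cartilage. They were taken by gene symbol and not by their measured values, though earlier results of these data were known. They are 5 of the 1973 microRNA genes in the count tables. MicroRNA-seq, in which small RNAs are ligated to adapters and sequenced, was done on total RNA of hindbrain from newborn mice (postnatal day 0) of strain B6NCrl, with a labelled size range below 30 nt. The series holds 1 group of 2 untreated libraries, pup 3 and pup 1, each from a single hindbrain. The labels describe different pups but give both the same donor identifier, sex was not collected, and there is no other genotype, age or treatment to compare. The data address how abundant each gene was in this tissue and how closely the pups matched.

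MicroRNAs are cut from hairpin precursors into mature strands of the 5p and 3p arms, and pair with messenger RNAs mainly through the seed (bases 2 to 8 of the mature strand). Mir199a-2 and Mir214 are made from Dnm3os, a noncoding transcript needed for skeletal growth in the mouse and driven by the mesenchymal transcription factor Twist1. Mir140 lies in Wwp2, is known as a cartilage microRNA, and its loss in the mouse shortens bones formed from cartilage. In the brain, fibroblasts and related cells lie in the meninges, around vessels and in the stroma of the choroid plexus.

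The mature sequences are shown because they decide which genes can be counted apart. They are from RefSeq (GRCm38.p6), 5′ to 3′, with the seed in capitals. RefSeq's table had the hairpins of all 5 genes and 8 mature entries. It had no entry for miR-199b-5p or miR-140-5p, which are named only.
miR-199a-5p (Mir199a-1 and Mir199a-2): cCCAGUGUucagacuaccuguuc
miR-199a-3p (Mir199a-1 and Mir199a-2): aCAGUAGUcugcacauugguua
miR-199b-3p (Mir199b): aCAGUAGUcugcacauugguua
miR-214-5p (Mir214): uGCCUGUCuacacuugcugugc
miR-214-3p (Mir214): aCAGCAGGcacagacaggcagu
miR-140-3p (Mir140): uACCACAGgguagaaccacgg

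The same 22-nt 3p strand is thus encoded by 3 genes, and the same 23-nt 5p strand by Mir199a-1 and Mir199a-2. Among 1738 mature entries, no gene outside this set carried the seed of miR-199a-5p, of miR-199a-3p or of miR-214-5p. The entries held neither miR-199b-5p nor miR-140-5p, so the seeds of those strands were not compared. The seeds of miR-199a-3p and miR-214-3p differ at 2 of 7 bases. The seed of miR-214-3p was shared with miR-761 and that of miR-140-3p with miR-497b, shown here because each could pair with similar sites.
miR-761 (Mir761): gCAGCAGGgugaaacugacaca
miR-497b (Mir497b): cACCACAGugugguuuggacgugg

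Neither seed partner was present at a level above the 3 counts that a count of 0 allows. Mir761 had 0 counts in pup 3 and 0 in pup 1, and Mir497b had 2 and 0 on its own strand.

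The 5 genes lie at 4 places in the genome (mm10, GENCODE M21). Mir199a-1 is at chr9:21496495-21496564 on the minus strand, in an intron of Dnm2 and opposite to its direction. Mir199b is at chr2:32318460-32318569 on the plus strand, in an intron of Dnm1 and opposite to its direction. Mir199a-2 (chr1:162217814-162217923) and Mir214 (chr1:162223368-162223477) are on the plus strand, 5444 nt apart. Both lie in exons of Dnm3os and opposite to an intron of Dnm3. Each Mir199 gene therefore lies opposite to a different gene for dynamin, a protein that pinches off membrane vesicles. Mir140 is at chr8:107551244-107551313 on the plus strand, the strand of Wwp2. It is intronic in 3 of the 4 Wwp2 transcripts that span it, and the fourth is a retained intron that covers it. The hairpins have like base composition, from 52.7% GC in Mir199b to 56.4% in Mir214.

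The hairpins of Mir199a-1 and Mir199a-2 show where the copies differ. Capitals mark the mature strands of RefSeq.
Mir199a-1: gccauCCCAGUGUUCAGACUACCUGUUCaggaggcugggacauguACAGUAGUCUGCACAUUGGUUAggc
Mir199a-2: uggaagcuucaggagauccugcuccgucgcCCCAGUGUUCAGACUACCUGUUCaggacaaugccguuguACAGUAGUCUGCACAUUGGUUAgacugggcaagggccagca

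Around the 5p strand the copies stay identical over 27 nt, with 0 shared bases before it and 4 after it. Around the 3p strand Mir199a-2 is identical to Mir199a-1 over 26 nt and to Mir199b over 27 nt, and Mir199a-1 to Mir199b over 28 nt. Every window of 20 nt was looked up in 1005 RefSeq hairpins and 141767 GENCODE transcripts on both strands. No window inside the mature strands listed for the Mir199 genes was particular to 1 locus, 0 of 7 in Mir199a-1, 0 of 7 in Mir199a-2 and 0 of 3 in Mir199b. All 6 such windows of Mir214 and both of Mir140 were found at no other locus. RefSeq listed no 5p strand for Mir199b or Mir140, so those strands were not examined in this way. Over the whole hairpin, 34 of 51 windows of Mir199a-1, 75 of 91 of Mir199a-2 and 81 of 91 of Mir199b occurred nowhere else, against 91 of 91 of Mir214 and 51 of 51 of Mir140. By the layout inferred for the count tables, a read with more than 1 matching locus is given to no gene, and such reads made up 42.0% of the library of pup 3 and 40.2% of that of pup 1. A read that lies wholly inside the shared stretches is one of these, so the counts of the Mir199 genes cannot be read as the level of miR-199a or of miR-199b-3p. How much of miR-199 was left out in this way was not tested.

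**Figure D1:**
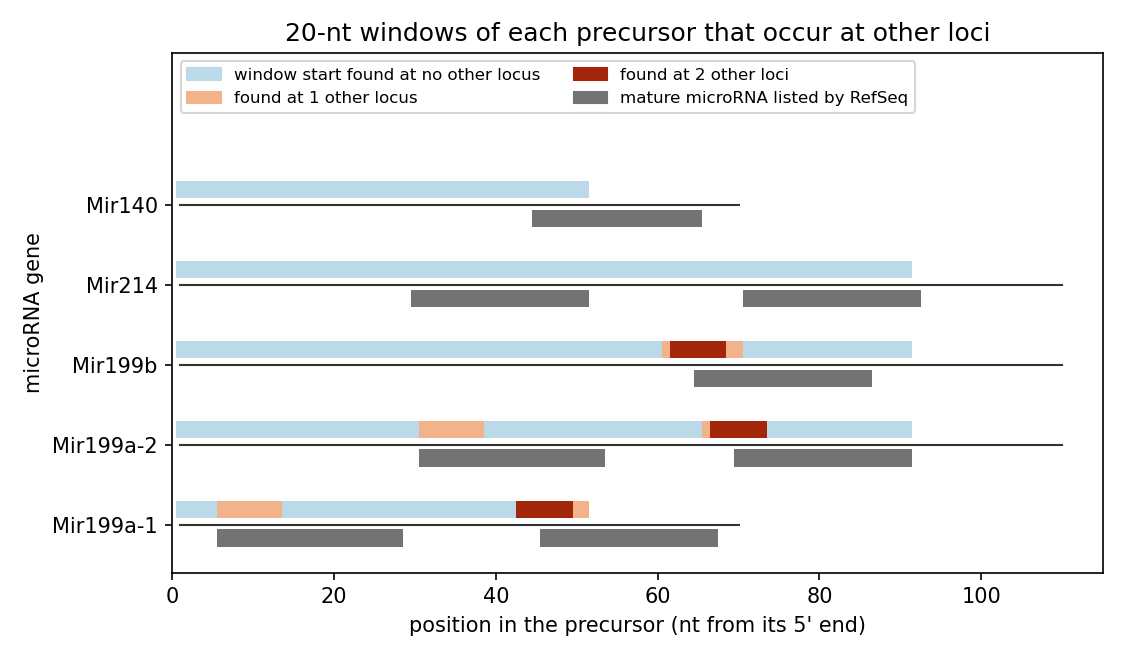
Precursor of each gene drawn to scale, in nt from its 5′ end; the upper band colours each start of a 20-nt window by how many other loci hold that window, and grey bars mark the mature strands in RefSeq. Shared windows sit at the mature strands of the 3 Mir199 genes, while all 91 windows of Mir214 and all 51 of Mir140 occur at no other locus.

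Levels are given as CPM, counts per 1000000 of the library's same-strand counts over all microRNA genes, which totalled 3012320 in pup 3 and 2459757 in pup 1. Of all genes, 642 had a count in pup 3 and 619 in pup 1. The limit that a count of 0 allows is 3 counts, which is 0.996 CPM in the library of pup 3 and 1.22 in that of pup 1. Each read was taken to come from 1 short RNA whatever the length of its gene, so no scaling by length was used. Capture that depends on sequence was not tested, and in a whole hindbrain fewer cells of a type and less RNA per cell cannot be told apart. Intervals are 95% Clopper-Pearson and cover counting error only. Reads carry no molecular identifiers, so repeated reads of 1 RNA molecule cannot be told apart, and the intervals do not allow for them.

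Among reads that match 1 locus, Mir140 had by far the most counts of the 5 genes. Which cells of the hindbrain its counts came from was not tested. It had 13991 counts in pup 3 and 10074 in pup 1, or 4645 CPM (interval 4568 to 4722) and 4096 CPM (4016 to 4176). Its mean was 4370 ± 388 CPM (SD, n = 2), and it ranked 50 of 1973 genes in pup 3 and 51 in pup 1. Of the counts of all 5 genes, Mir140 held 94.5% in pup 3 and 95.1% in pup 1.

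Mir214, from the 3′ side of Dnm3os, came next. It had 679 counts in pup 3 and 395 in pup 1, or 225 CPM (209 to 243) and 161 CPM (145 to 177), with a mean of 193 ± 45.8 CPM (SD, n = 2). It ranked 183 in pup 3 and 203 in pup 1. Mir140 exceeded Mir214 by 20.6 times in pup 3 (19.1 to 22.3) and by 25.5 times in pup 1 (23.1 to 28.3). No 20-nt window of either gene occurred at another locus in the sequences searched.

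The Mir199 genes had far fewer counts. Mir199b had 125 in pup 3 and 107 in pup 1, or 41.5 CPM (34.5 to 49.4) and 43.5 CPM (35.6 to 52.6), a mean of 42.5 ± 1.42 CPM (SD, n = 2). Mir199a-2 had 17 counts in pup 3 and 21 in pup 1, or 5.64 CPM (3.29 to 9.04) and 8.54 CPM (5.28 to 13.1), a mean of 7.09 ± 2.05 CPM (SD, n = 2). Mir199a-1 had 1 count in pup 3 and 0 in pup 1, both under the limit that a count of 0 allows. Together the 3 genes held 143 counts in pup 3 and 128 in pup 1, or 47.5 and 52.0 CPM.

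The order Mir140, Mir214, Mir199b, Mir199a-2 and Mir199a-1 was the same in both pups. No neighbours in it had overlapping counting intervals in either pup. At 10 CPM in both pups, 3 of the 5 genes were detected. This is an order of counts at 1 locus, and the place of miR-199 in it is not known. The 5 genes summed to 4917 CPM in pup 3 and 4308 in pup 1, of which the 4 genes other than Mir140 gave 273 and 213 CPM. The sum of all 5 was 0.461% ± 0.0431 of counts (SD, n = 2). Opposite-strand reads were nearly absent, with 1 at Mir214 in pup 3 and 0 at every other of these genes in both pups.

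**Figure D2:**
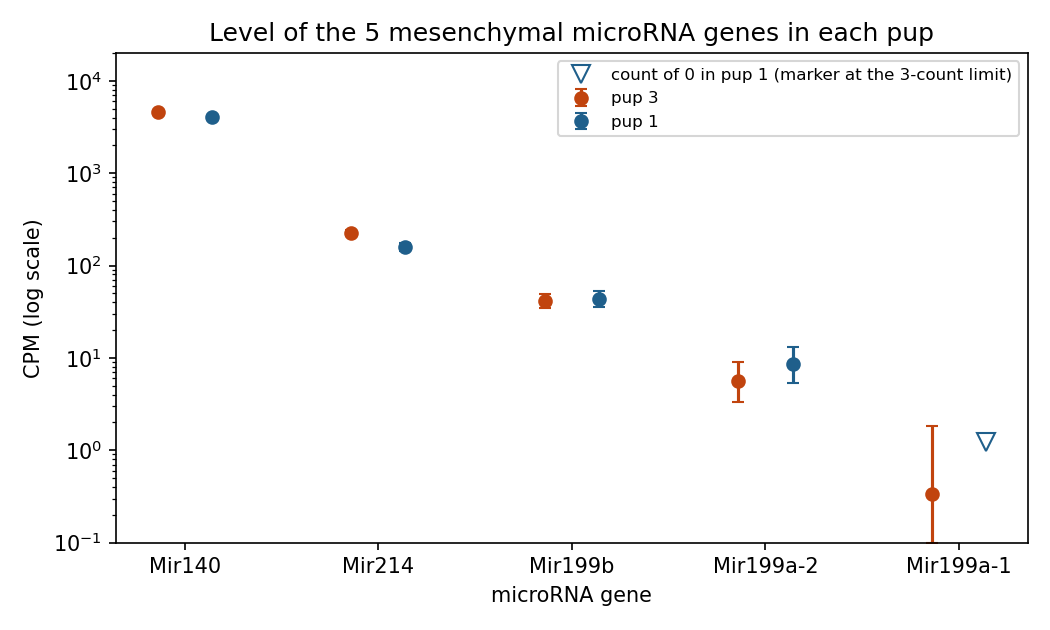
CPM of each gene on a log scale in pup 3 (orange) and pup 1 (blue); bars are 95% counting intervals, and the open triangle marks the count of 0 of Mir199a-1 in pup 1 at its limit of 1.22 CPM. Levels step down from 4645 and 4096 CPM for Mir140 to at most 1 count for Mir199a-1, in the same order in both pups.

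**Figure D3:**
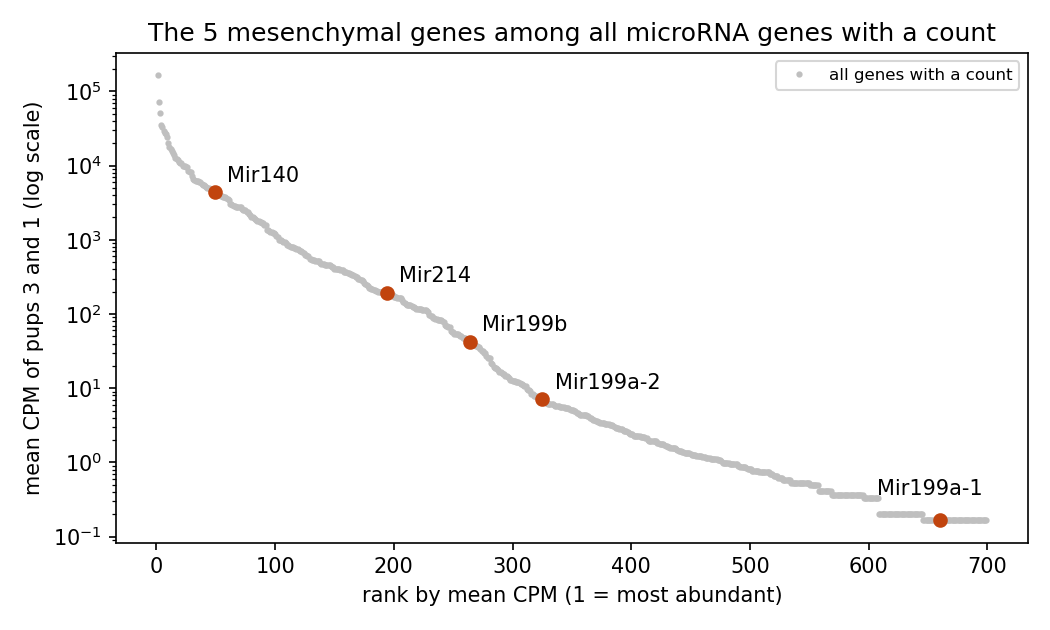
Mean CPM of both pups on a log scale against rank, for the 699 genes with a count in either pup; the 5 genes are orange, and Mir199a-1 is tied with many genes of 1 count. Mir140, at 4370 CPM, lies on the upper slope, Mir214, at 193 CPM, on the middle slope, and the Mir199 genes further down.

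Neighbours on 1 transcript differed widely in counts. Mir214 exceeded Mir199a-2 by 39.9 times in pup 3 (24.8 to 69.0) and by 18.8 times in pup 1 (12.1 to 30.7). Both are read from Dnm3os, yet no window inside a mature strand of Mir199a-2 is its own, as shown with the sequences. What the shared sequence adds to the ratio was not tested. The only other annotated microRNA gene within 10 kb of the 5 genes was Gm23363, 116 nt from Mir199b on the same strand, with 0 counts in both pups.

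Genes with the most similar levels were found by the distance of log2(CPM + 1) over the 2 libraries, which over so few libraries describes level and little else. Nearest to Mir140 were Mir652, at 4676 CPM in pup 3 and 3937 in pup 1, and Mir379 of the imprinted Dlk1-Dio3 region, at 4603 and 3796 CPM. Nearest to Mir214 were Mir223, a microRNA of myeloid blood cells, at 229 CPM in pup 3 and 169 in pup 1, and Mir190a at 219 and 169 CPM. Nearest to Mir199b were the liver microRNA Mir122, at 45.5 and 41.9 CPM, and Mir26a-2 at 39.5 and 37.8 CPM. Nearest to Mir199a-2 were Mir669h, with 15 and 20 counts, and Mir3097, with 14 and 22.

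Mir214 and Mir140 were higher in pup 3 than in pup 1, and Mir199b and Mir199a-2 did not pass the test. The 2 counts of each gene were compared with an exact binomial test on totals scaled by TMM, two-sided, with Benjamini-Hochberg adjustment over 395 genes with at least 10 counts in either pup. It asks only whether these libraries differ by more than counting error, and the series has no conditions to compare. Of the 5 genes, 4 were tested and 2 were called, both higher. In the background 46.8% of tested genes were called in either direction, and 25.6% were higher in pup 3, so a count of 2 of 4 is close to the background. The median log2 fold was 0.0032 over the 4 tested genes and 0.020 over all tested genes.

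The log2 fold of Mir214 was 0.44 (counting interval 0.26 to 0.62, adjusted p = 5.33e-06 by the exact binomial test), or 1.35-fold. That of Mir140 was 0.13 (0.09 to 0.17, adjusted p = 3.82e-11 by the same exact test), or 1.09-fold. With a common biological coefficient of variation of 16.6% (361 genes), the SD of a log2 fold between pups was 0.34. The folds of Mir214 and Mir140 were 1.28 and 0.379 times this SD. Of all tested genes, 25.8% had a larger absolute fold than Mir214 and 71.1% a larger one than Mir140. The fold of Mir140 thus exceeded counting error but lay within this SD, and that of Mir214 lay between 1 and 2 such SDs. The SD comes from the same 2 libraries whose folds it is set against. With 1 library per pup, pup and library preparation cannot be told apart.

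Mir199b had a log2 fold of -0.12 (-0.51 to 0.27, adjusted p = 0.703, exact binomial test). For Mir199a-2 it was -0.64 (-1.66 to 0.34, adjusted p = 0.305, same exact test), an estimate that rests on 17 and 21 counts. Mir199a-1 was not tested. Between the Dnm3os neighbours, the log2 fold of Mir214 exceeded that of Mir199a-2 by 1.09 (counting interval 0.07 to 2.12, no adjustment). It also exceeded that of Mir199b by 0.56 (0.13 to 0.98) and that of Mir140 by 0.31 (0.12 to 0.49). The difference was thus not particular to Dnm3os, and these intervals leave out the spread between pups. All comparisons were made from Mir214, which had the highest fold of these genes, so each difference was bound to be positive.

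**Figure D4:**
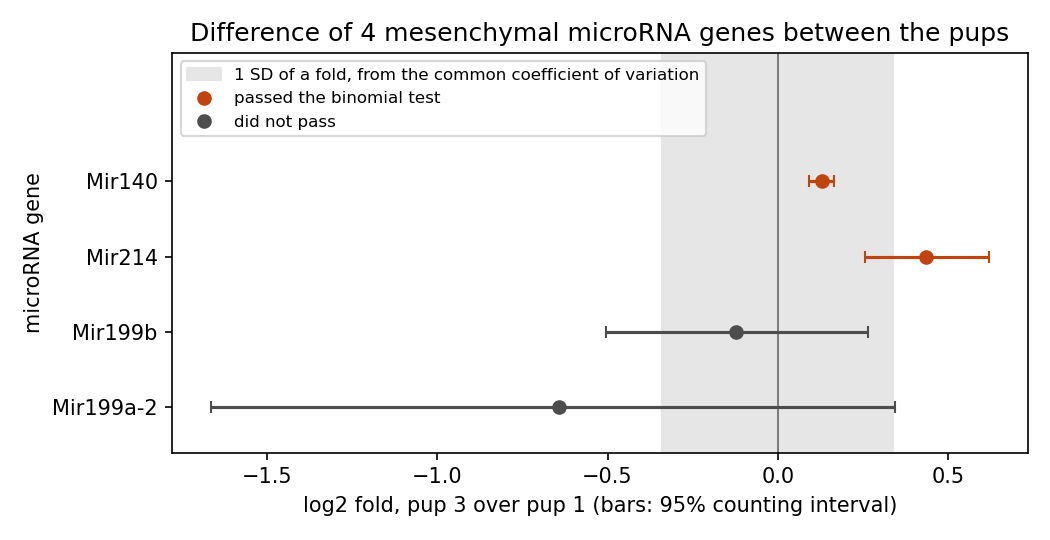
Log2 fold, pup 3 over pup 1, of the 4 tested genes with 95% counting intervals; orange points passed the exact binomial test and the grey band is 1 SD of a fold (0.34). Mir140 lies inside the band at 0.13, Mir214 just outside it at 0.44, and the intervals of Mir199b and Mir199a-2 include 0.

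Lists of other cell types were set beside these genes. The fibroblast and fibrosis list summed to 18500 CPM in pup 3 and 15906 CPM in pup 1, with 4 of 6 genes at 10 CPM in both pups and a median of 491 CPM. It was led by Mir22 at 10760 ± 1291 CPM, Mir21a, known to rise in fibrosis, at 5451 ± 406 CPM, and Mir29a, which represses collagen genes, at 546 ± 51.5 CPM (SD, n = 2 each). These microRNAs are made by many cell types besides fibroblasts. Of its 6 genes, 4 were higher in pup 3, 0 were lower and 2 did not pass, where 25.6% of all tested genes were higher and 21.3% lower.

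The other cartilage microRNAs did not share the level of Mir140. Mir455, in the collagen gene Col27a1 and known from cartilage, had 566 CPM in pup 3 and 477 in pup 1. Mir675, made from the imprinted transcript H19, had 14 and 26 counts. Mir455 was higher in pup 3 (log2 fold 0.19, adjusted p = 0.00109, exact binomial test), as Mir140 was, while Mir675 was lower (log2 fold -1.22, adjusted p = 0.0228, same exact test). The list's 2 genes thus gave 1 call in each direction, where 25.6% of all tested genes were higher and 21.3% lower.

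Of vessel wall markers, Mir143, of smooth muscle and pericytes, had 9520 CPM in pup 3 and 7422 in pup 1, and Mir145a had 199.8 and 207 CPM. Mir143 was higher in pup 3 (log2 fold 0.31, adjusted p = 2.55e-111, exact binomial test), and Mir145a did not pass. Endothelial Mir126a had 36931 CPM in pup 3 and 34216 in pup 1 and was higher by a log2 fold of 0.06.

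Counts were also taken for muscle and blood. The striated muscle list summed to 148 CPM in pup 3 and 117 CPM in pup 1, with 3 of 8 measured genes, Mir1a-1, Mir133a-1 and Mir133a-2, at 0 counts in both pups. These are copies of genes with the same mature strands, so, as for Mir199, a count of 0 does not show that their microRNAs were low. Its leading genes were Mir206 at 112 ± 18.7 CPM, Mir499 at 12.9 ± 3.32 CPM and Mir208b at 5.63 ± 0.488 CPM. Mir206 was higher in pup 3 (log2 fold 0.29, adjusted p = 0.0331, exact binomial test). The other 2 of the 3 tested genes did not pass, where 25.6% of all tested genes were higher. The red blood cell list summed to 124 and 165 CPM in pups 3 and 1, from Mir451a (37.5 and 134 CPM), Mir144 (67.1 and 17.1 CPM) and Mir486 (19.3 and 13.8 CPM). The leukocyte list summed to 352 and 314 CPM, from Mir223 and Mir155 (123 and 145 CPM). Mir223 was higher in pup 3 (log2 fold 0.39) and Mir155 lower (log2 fold -0.29). In the red blood cell list Mir451a was lower (log2 fold -1.88), Mir144 was higher (1.91) and Mir486 did not pass.

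The choroid plexus list, of the secretory epithelium in the brain's ventricles, summed to 4528 CPM in pup 3 and 5544 in pup 1, with Mir204 at 3550 and 4614 CPM, Mir448 at 968 and 916 CPM and Mir211 at 9.96 and 13.8 CPM. Mir204 was lower in pup 3 (log2 fold -0.43), and the other 2 did not pass. The neuronal list summed to 25754 and 21032 CPM, and whether it tells hindbrain from other brain regions was not tested. It was led by Mir137 at 12408 ± 1160 CPM, Mir128-1 at 5957 ± 941 CPM and Mir153 at 2752 ± 1042 CPM. Of its 9 genes, 6 reached 10 CPM in both pups. Mir124a-1, Mir124a-2 and Mir124a-3, copies known for their abundance in neurons, had only 5.26, 2.31 and 0.942 CPM on average. As for Mir199, low counts of such copies do not show that their microRNA was low, and reads shared among them were not tested. In that list 4 of 7 tested genes were higher in pup 3, 1 was lower (Mir218-2, log2 fold -0.31) and 2 did not pass. Of all tested genes, 25.6% were higher and 21.3% lower. The summed levels of the choroid plexus and red blood cell lists were lower in pup 3 than in pup 1, and those of the other 7 lists were higher, as were Mir214 and Mir140. Each sum follows its most abundant genes, and the red blood cell, cartilage, leukocyte and neuronal lists each held calls in both directions. The part of cell composition in the folds of Mir214 and Mir140 was not tested.

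**Figure D5:**
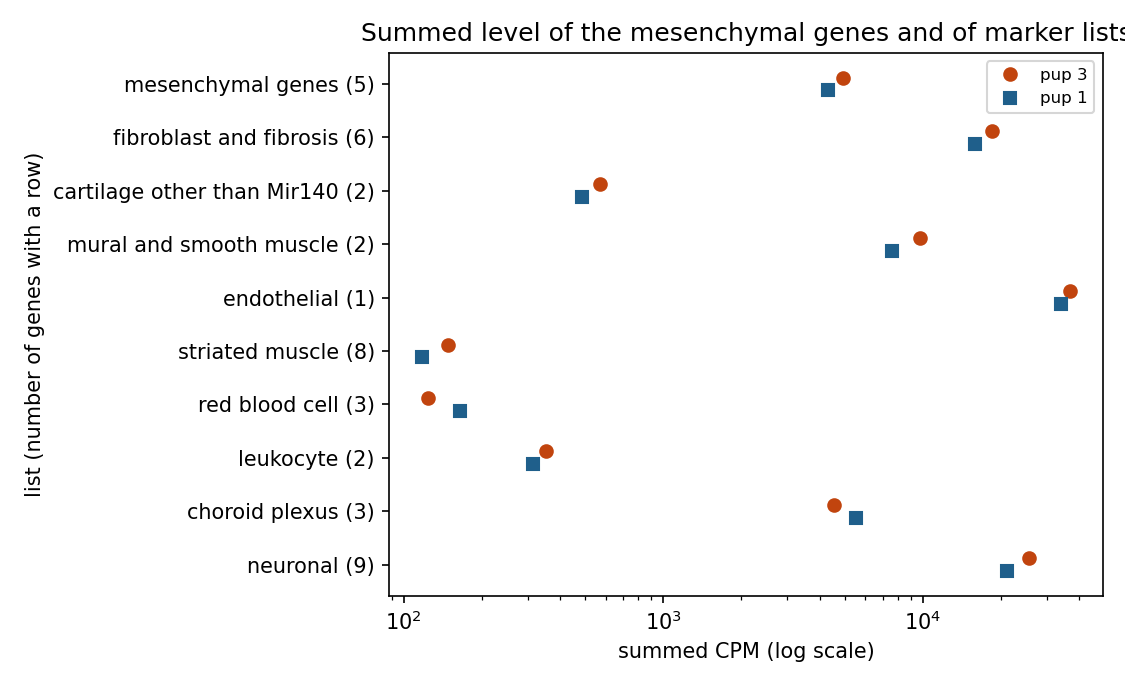
Summed CPM on a log scale of the 5 mesenchymal genes and of each marker list, in pup 3 (circles) and pup 1 (squares). The number of genes that have a row is given with each list. Which cells gave the counts was not tested. The mesenchymal genes, at 4917 and 4308 CPM, lie near the choroid plexus list and below the fibroblast, mural, endothelial and neuronal lists; without Mir140 they sum to 273 and 213 CPM, below the leukocyte list.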

How the data were processed

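For each library the authors deposited raw read counts per microRNA gene, aligned to mm10 and annotated with GENCODE M4 according to a text listing in each sample's deposit. The aligner was not given in the sources used here. The 3 count columns have no header. The first equals the sum of the others, and the one that holds nearly all counts was taken as the strand of the gene. The tables were read as giving no gene a read that matches several loci. The 4 rows that name no gene stayed out of totals. In pup 3 and pup 1, unmapped reads were 12.4% and 13.7% of 7175976 and 5812558 reads, and reads without a gene 3.63% and 3.79%. Symbols came from GENCODE M21, matched for 1894 of 1973 rows.

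CPM used plain totals. TMM factors and the common coefficient of variation came from edgeR 4.0.16 (intercept only, at least 10 counts in both pups), and the binomial test from scipy 1.17.1, at an adjusted p threshold of 0.05, with a prior of 0.5 counts in folds. edgeR's quasi-likelihood test has no residual degrees of freedom here and was not run. Scripts were tested on simulated data. Alternatives were other scalings (DESeq2 1.42.0 size factors among them), filters, strands, denominators and window lengths. The members and lists were chosen with earlier results of these data known. Named genes were the 5 members, microRNA genes within 10 kb, the 2 nearest in level per member with at least 10 counts in both pups, and the 3 highest of each list. Other genes were named after values were seen, for a shared seed (Mir761, Mir497b), a low count (Mir1a-1, Mir133a-1, Mir133a-2, the Mir124a genes), a call against their list (Mir218-2) or a shared window (Gm43658). Listed genes without a row (Mir126b, Mir1a-2 and Mir142) were not analysed here.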

Additional observations from a re-analysis of the deposited data

How the results depend on the processing

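The count of 2 called genes was 2 under each of 6 alternatives, while the background moved. Over all tested genes, 185 of 395 were called in the main test. The alternatives called 191 of 395 (plain totals), 190 of 395 (DESeq2 size factors) and 177 of 699 (no filter beyond 1 count). They called 186 of 361 with 10 counts in both pups, 196 of 408 with either-strand counts and 132 of 395 with Bonferroni adjustment. The folds of the 4 tested genes kept their direction and side of the threshold in 20 of 20 recomputations. A change of filter cannot alter a fold, so in those recomputations only the adjusted p could move. Folds lay between 0.42 and 0.49 for Mir214, 0.11 and 0.18 for Mir140, -0.14 and -0.07 for Mir199b, and -0.66 and -0.59 for Mir199a-2. The summed level of 4613 ± 431 CPM (SD, n = 2) was 1944 ± 171 per 1000000 of all reads, since that total also holds multimapped reads (42.0% in pup 3 and 40.2% in pup 1), unmapped reads (12.4% and 13.7%) and reads without a gene. Leaving out each pup gave 4308 to 4917 CPM. No paired analysis was possible because there is 1 group. No genome sequence was used, so windows were matched to annotated sequences instead of the whole genome. Windows of 18 to 24 nt left Mir199a-1 with 60.4% to 80.9% of its windows at no other locus, Mir140 with 100%, and Mir214 with 100% except at 18 nt, where 1 window also occurred in Gm43658 and 98.9% remained. Depth limits Mir199a-1 and Mir199a-2 most, and with 2 pups the spread is itself poorly known.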
